A study of Saccharomyces cerevisiae with 7 samples.

Results

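Nucleotides are the building blocks of RNA and DNA, and the genes described here encode the yeast enzymes, transporters and one regulator that make or recover them. The list holds 40 genes, chosen by symbol: the synthetases of phosphoribosyl pyrophosphate (PRPP), the de novo purine chain, the branch to GMP, the factor Bas1, purine and pyrimidine salvage and uptake, the de novo pyrimidine chain and ribonucleotide reductase. Of the 40 genes, 38 had a usable probeset, among 5449 S. cerevisiae genes named on the array. Each gene was represented by the probeset with the highest mean over all 7 arrays, leaving out identifiers that mark probes shared between transcripts. The cells were budding yeast of strain NRRL Y-12632, which ATCC holds as 18824, with the genotype cir+, which means that they carry the native yeast plasmid. A total of 4 cultures were grown for 24 h in YPD, a rich yeast medium, prepared with simulated asbestos mine drainage. This was deionized water mixed with mine tailings, taken through freeze-thaw cycles, drawn off and filtered. Another 3 cultures were grown for the same time in YPD prepared with deionized water. The mine drainage cultures and the control cultures were separate cultures started from a shared inoculum, so the p-values measure the spread between cultures of a single strain in a single experiment. RNA of each culture was hybridized to 1 Affymetrix Yeast Genome 2.0 array.

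De novo synthesis builds the purine ring step by step on PRPP until inosine monophosphate (IMP) is formed, from which separate branches lead to AMP and GMP. The pyrimidine ring is instead closed first and joined to PRPP afterwards, while salvage enzymes recycle free bases, and ribonucleotide reductase turns ribonucleotides into the deoxynucleotides needed for DNA. In budding yeast the purine genes are known to be activated when purines are scarce, through Bas1 acting together with Pho2, and the pyrimidine genes are under separate control.

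Values are log2 signals normalized by the Robust Multichip Average (RMA), in which a difference of 1 is a doubling, and every difference is mine drainage minus control. A gene was called higher or lower at a Benjamini-Hochberg adjusted p under 0.05 in limma, a moderated linear model fitted over all 5498 S. cerevisiae probesets. In that fit 31.6% of probesets were called, 14.5% higher and 17.1% lower in mine drainage, and the median difference was -0.03. All mine drainage arrays lay above all control arrays for 17.7% of probesets, and below them for 20.5%. The 3′ minus 5′ signal difference of the array's 8 control transcripts, a sign of RNA integrity and of how far labelling reached, averaged 0.694 ± 0.157 in mine drainage and 0.946 ± 0.175 in control arrays (SD, n = 4 and 3, exact permutation p = 0.114). Signal of the ribosomal RNA probesets was 11.85 ± 0.118 in mine drainage and 11.46 ± 0.123 in control arrays (SD, n = 4 and 3, exact permutation p = 0.0286, the smallest that 35 splits of 7 arrays allow). The control transcripts added at hybridization were also higher, at 9.95 ± 0.211 in mine drainage and 9.53 ± 0.176 in control arrays (SD, n = 4 and 3, exact permutation p = 0.0857). These differences were 0.40 for ribosomal RNA and 0.41 for the added controls, and their source was not tested. In bulk RNA, fewer cells of a kind and less RNA per cell cannot be told apart.

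In mine drainage 9 of the 12 measured genes of the purine chain and the GMP branch rose. So did 2 of 7 salvage and uptake genes (APT1 and HPT1) and 2 of 4 ribonucleotide reductase genes. Of the 9 pyrimidine genes, 2 rose and 1 fell. Of the 38 measured genes, 16 (42.1%) were higher in mine drainage, 1 was lower, and 21 were not called, against the 14.5% and 17.1% of all probesets. The genes were listed with earlier results of these data known, so this count and the group counts are no independent evidence. The median difference over the 38 genes was 0.21, with a range from -0.38 for URA5 to 1.27 for ADE8, and 27 differences were positive and 11 negative. Mine drainage arrays lay wholly above control arrays for 18 of the 38 genes and wholly below for 3, against 17.7% and 20.5% of all probesets. The count of 16 depended on single arrays: it was 6 without control replicate 2, 8 without control replicate 3 and 9 without mine drainage replicate 4, against 5.89%, 7.55% and 9.29% of all probesets called higher in those fits. The 6 genes left without control replicate 2 were ADE8, ADE1, ADE2, ADE17, GUA1 and APT1. With the 3′ minus 5′ difference as a covariate, 3 genes were called higher (ADE8, ADE1 and GUA1), against 4.15% of all probesets, and the part of RNA integrity in the other calls was not tested. Under the covariate, some differences that lost their call were about as large as before. These were 0.51 for IMD3, 0.64 for IMD4, 0.34 for RNR4 and 0.31 for ADE4. More of them were smaller, at 0.57 for APT1, 0.38 for ADE17, 0.35 for ADE2, 0.31 for HPT1 and 0.27 for ADE13. Smaller too were URA2 at 0.25, URA4 at 0.23, RNR1 at 0.19 and PRS5 at 0.16. URA5, called lower in the main fit, stood at -0.54 without a call.

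**Figure D1:**
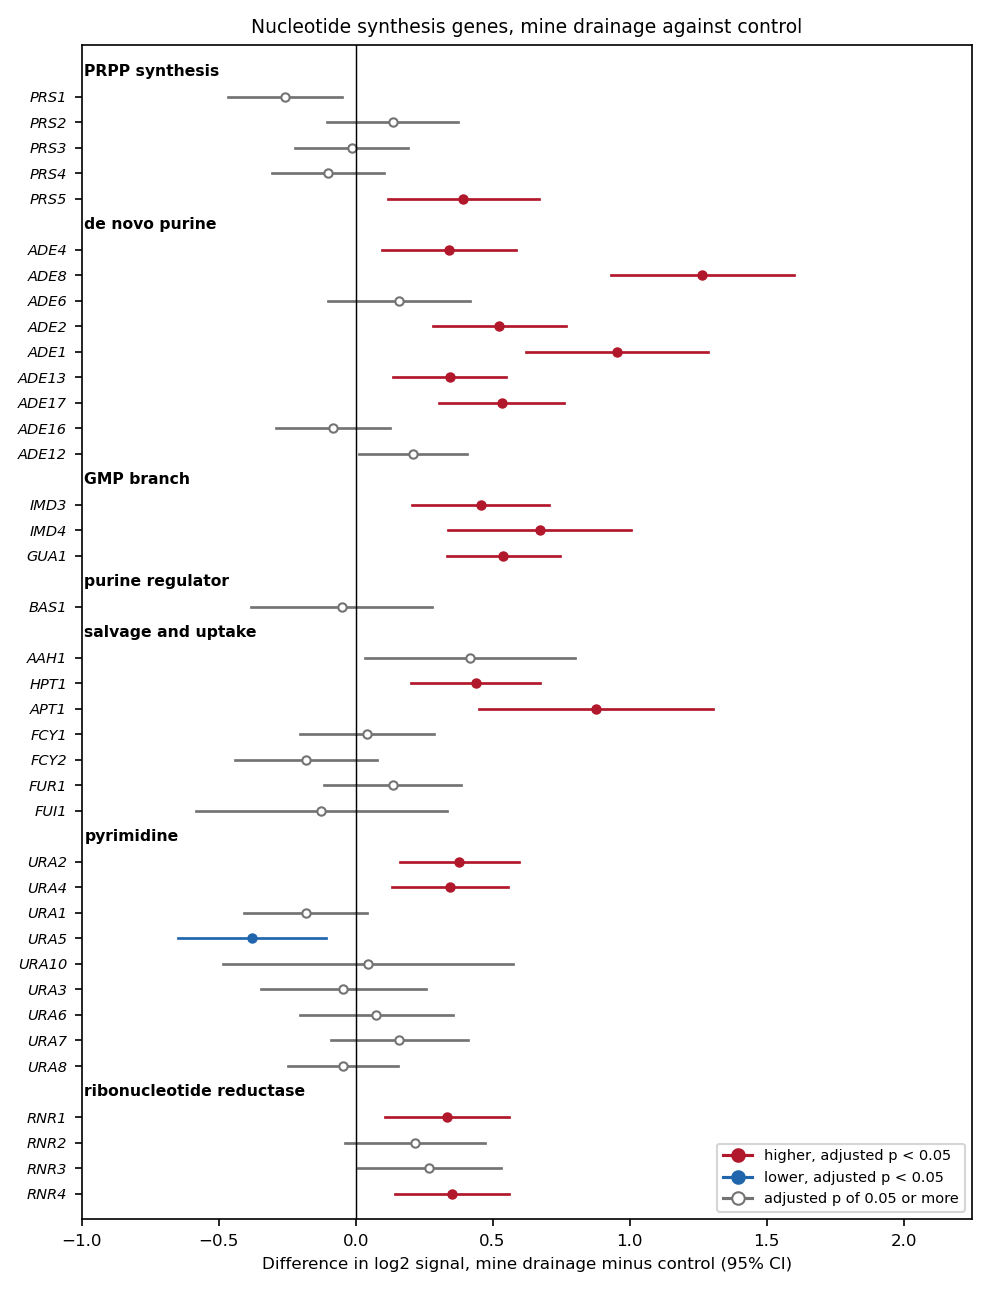
Difference in log2 signal, mine drainage minus control, for the 38 measured genes in pathway order from top to bottom, with lines for 95% confidence intervals from the limma fit and filled points for genes at adjusted p under 0.05. The called purine genes run from 0.34 for ADE4 to 1.27 for ADE8, and URA5, at -0.38, is the only gene called lower.

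Along the de novo purine chain, 6 of 9 measured genes were higher and none was lower, against 14.5% and 17.1% of all probesets. The median difference was 0.34. The chain and the GMP branch together had 9 of 12 measured genes higher (75.0%), with a median of 0.49. ADE8 (YDR408C), which encodes the formyltransferase that acts on glycinamide ribonucleotide, had signals of 8.57, 8.52, 8.18 and 8.30 in mine drainage and 7.44, 6.90 and 7.04 in control cultures. The lowest mine drainage value stood clear of the highest control value, and ADE8 rose by 1.27 ± 0.149 (SE), 2.40-fold (adjusted p = 0.00177). ADE1 (YAR015W), which encodes SAICAR synthetase, had signals of 9.24, 9.49, 9.29 and 9.40 in mine drainage and 8.69, 8.47 and 8.04 in control cultures. The mine drainage arrays were close together and the control arrays were spread out, with no overlap, and the rise was 0.95 ± 0.148 (SE), 1.94-fold (adjusted p = 0.00343). ADE8 and ADE1 kept their calls under all 19 alternative settings of the analysis.

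The enzymes around them rose less. ADE2 (YOR128C), the carboxylase whose loss turns yeast colonies red, gave 10.05, 9.94, 9.93 and 10.01 in mine drainage and 9.63, 9.48 and 9.26 in control cultures, a rise of 0.52 ± 0.108 (SE; adjusted p = 0.00799). ADE4 (YMR300C), the amidotransferase that commits PRPP to purines, gave 9.09, 9.32, 9.09 and 9.22 in mine drainage and 8.97, 8.88 and 8.67 in control cultures, a rise of 0.34 ± 0.109 (SE; adjusted p = 0.0399). Neither gene showed overlap between the groups, although the gap for ADE4 was narrow. Of the 19 alternative settings, the call was lost in 9 for ADE4 and in 1 for ADE2. ADE13 (YLR359W), adenylosuccinate lyase, which works both in the chain and in the AMP branch, gave 10.53, 10.34, 10.42 and 10.55 in mine drainage and 10.11, 10.13 and 10.11 in control cultures. Its control values were nearly equal, and the rise was 0.34 ± 0.0921 (SE; adjusted p = 0.0213), a call lost in 6 of the 19 alternative settings. ADE6, which encodes FGAM synthetase, averaged 9.94 ± 0.190 in mine drainage and 9.78 ± 0.0546 in control cultures (SD, n = 4 and 3), a difference of 0.16 that did not pass (adjusted p = 0.320). ADE12, adenylosuccinate synthase, which opens the AMP branch, averaged 10.51 ± 0.0647 and 10.30 ± 0.0567 in mine drainage and control cultures (SD, n = 4 and 3). Its difference was 0.21 (adjusted p = 0.0955), although its arrays did not overlap.

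**Figure D2:**
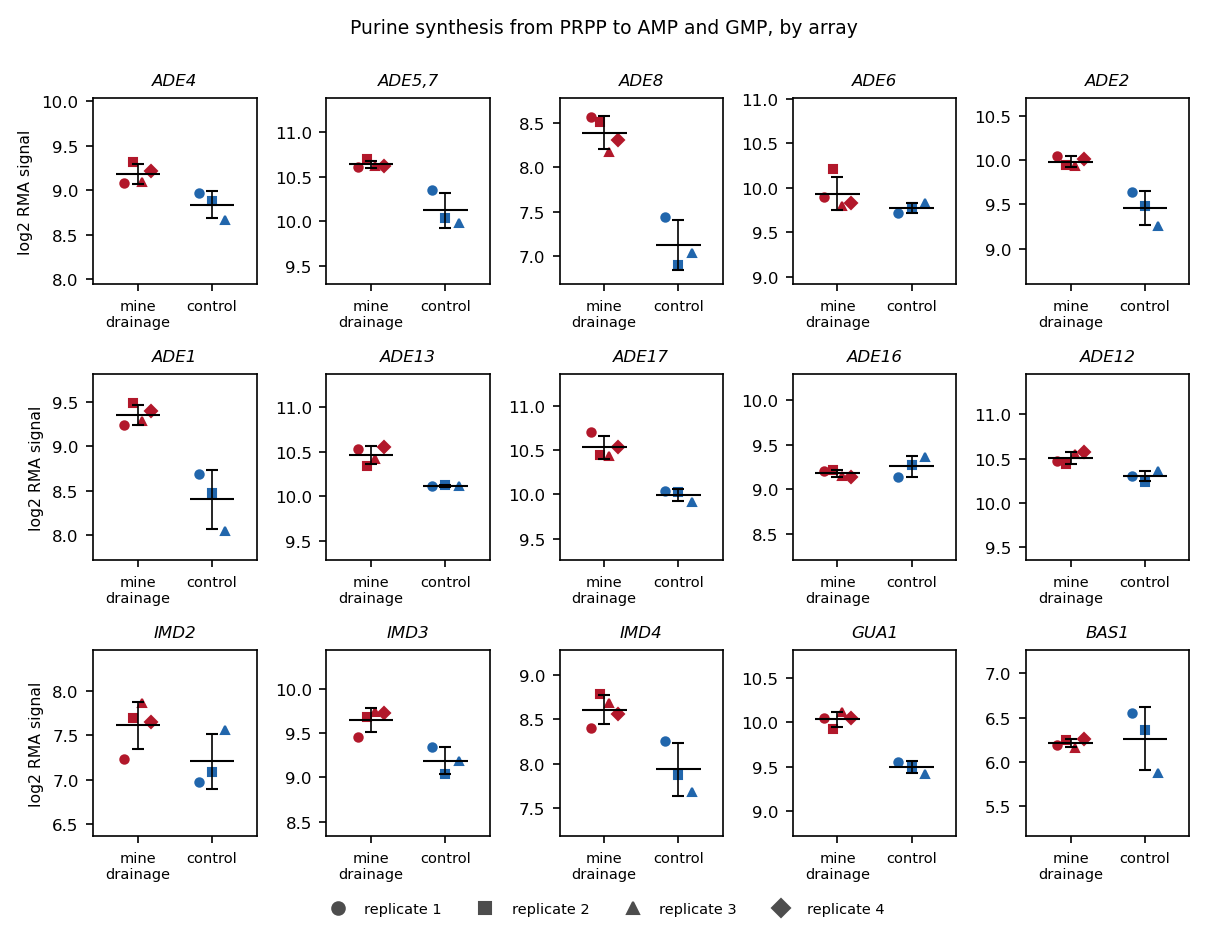
Log2 signal on every array, mine drainage on the left and control on the right of each panel, with a line for each group mean and error bars of 1 SD, for genes of the purine chain and its branches. The arrays of ADE8, ADE1 and GUA1 stand apart by group, while those of ADE16 overlap.

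ADE5,7, which encodes a bifunctional synthetase of the chain, is absent from the array annotation used here. Its probeset was named only through the part of the study's supplementary gene list available here. That part was restricted to small p-values, so the main fit left ADE5,7 out. With the 75 probesets named in that way added, ADE5,7 was called and the count became 17 of 39 genes, but its naming already depended on a small p, so the call is no independent evidence. Its signals were 10.61, 10.70, 10.62 and 10.63 in mine drainage and 10.35, 10.04 and 9.99 in control cultures. All mine drainage arrays lay above all control arrays, and the difference was 0.52. The last steps to IMP are carried out by a pair of isozymes, encoded by ADE16 and ADE17. ADE17 (YMR120C) had 10.71, 10.44, 10.43 and 10.54 in mine drainage and 10.04, 10.03 and 9.91 in control cultures, a rise of 0.53 ± 0.101 (SE; adjusted p = 0.00617). ADE16 (YLR028C) had 9.20, 9.22, 9.15 and 9.13 in mine drainage and 9.13, 9.27 and 9.37 in control cultures, a difference of -0.08 ± 0.0927 (SE; adjusted p = 0.525). ADE17 rose without overlap, whereas the ADE16 arrays were mixed. The signal of ADE17 minus that of ADE16 was 1.22 to 1.50 in mine drainage and 0.549 to 0.906 in control arrays, a shift of 0.62 (exact permutation p = 0.0286, adjusted p = 0.200 over 7 paralog pairs). With 35 splits and 7 pairs, a single pair with full separation could not have passed after adjustment. Only the change between groups can be read, since the probes of the genes differ. Cross-hybridization between these copies was not tested.

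All 3 measured genes of the GMP branch were higher in mine drainage, against 14.5% of all probesets, with a median difference of 0.54. IMP dehydrogenase, the first step of the branch, is encoded by several IMD genes. IMD4 (YML056C) had 8.40, 8.79, 8.68 and 8.56 in mine drainage and 8.26, 7.87 and 7.68 in control cultures, a rise of 0.67 ± 0.149 (SE; adjusted p = 0.0101). IMD3 (YLR432W) had 9.45, 9.68, 9.74 and 9.72 in mine drainage and 9.34, 9.04 and 9.19 in control cultures, a rise of 0.46 ± 0.112 (SE; adjusted p = 0.0152). For both genes the lowest mine drainage value, on replicate 1, came near the highest control value, also on replicate 1. The call was lost in 3 of the 19 alternative settings for IMD4 and in 5 for IMD3. IMD2 has only a probeset whose identifier marks shared probes, and its signals were 7.24, 7.70, 7.86 and 7.66 in mine drainage and 6.97, 7.09 and 7.56 in control cultures. Its groups overlapped and the difference of 0.41 was not called (adjusted p = 0.105), although it was called at 0.50 with array weights (adjusted p = 0.0107), at 0.53 without mine drainage replicate 1 (adjusted p = 0.0337) and at 0.80 with the 3′ to 5′ covariate (adjusted p = 0.0251). The difference between the responses of IMD3 and IMD4 was -0.22 (exact permutation p = 0.114, adjusted p = 0.250 over the 7 pairs). GUA1 (YMR217W), GMP synthase, had 10.04, 9.92, 10.12 and 10.05 in mine drainage and 9.56, 9.50 and 9.42 in control cultures. Its groups were tight and well apart, with a rise of 0.54 ± 0.0919 (SE; adjusted p = 0.00423), and the call held in all 19 alternative settings.

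BAS1 (YKR099W), which encodes the Myb-type activator of the purine genes, averaged 6.21 ± 0.0463 in mine drainage and 6.26 ± 0.349 in control cultures (SD, n = 4 and 3). Its difference of -0.05 was not called (adjusted p = 0.812), with a 95% interval from -0.38 to 0.28, and its sign changed under further quantile normalization and after a length trend was subtracted. PHO2 (YDL106C), the homeodomain partner of Bas1, had 6.16, 6.25, 6.03 and 5.88 in mine drainage and 6.43, 6.78 and 6.89 in control cultures. It fell by 0.62 ± 0.136 (SE) on the log2 scale (adjusted p = 0.00982), with no overlap, and the call was lost without control replicate 2 (-0.58, adjusted p = 0.0516) and with the 3′ to 5′ covariate (-0.45, adjusted p = 0.117).

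Of 10 genes known as Bas1 targets outside the nucleotide list, 6 were higher (60.0%) and none was lower, against 14.5% and 17.1% of all probesets. The median difference was 0.61. These genes were listed with earlier results of these data known, so the count is no independent evidence. GCV3, GCV2 and GCV1 encode subunits of the glycine cleavage complex, which feeds one-carbon units to purine synthesis. GCV3 had 7.997, 8.63, 8.14 and 8.19 in mine drainage and 6.70, 6.29 and 6.29 in control cultures, a rise of 1.81 (adjusted p = 0.000779). GCV2 rose by 1.50 (adjusted p = 0.000179) and GCV1 by 1.17 (adjusted p = 0.00177), both without overlap. SHM2, the cytosolic serine hydroxymethyltransferase, rose by 0.80 (adjusted p = 0.00177), and MTD1, a methylenetetrahydrofolate dehydrogenase, by 0.85 (adjusted p = 0.00581). The sixth called gene, ADE3, the C1-tetrahydrofolate synthase, rose by 0.42 (adjusted p = 0.0103). The other 4 genes act in histidine synthesis, and none of them was called: HIS1 differed by -0.07, HIS4 by -0.0032, HIS5 by 0.24 and HIS7 by -0.22 (adjusted p = 0.544, 0.986, 0.155 and 0.131). ADE3 and the HIS genes were singled out after their values were seen. The remaining 33 genes of the comparison lists had 7 higher (21.2%) and 1 lower, with a median of 0.09, against the same shares of all probesets.

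**Figure D3:**
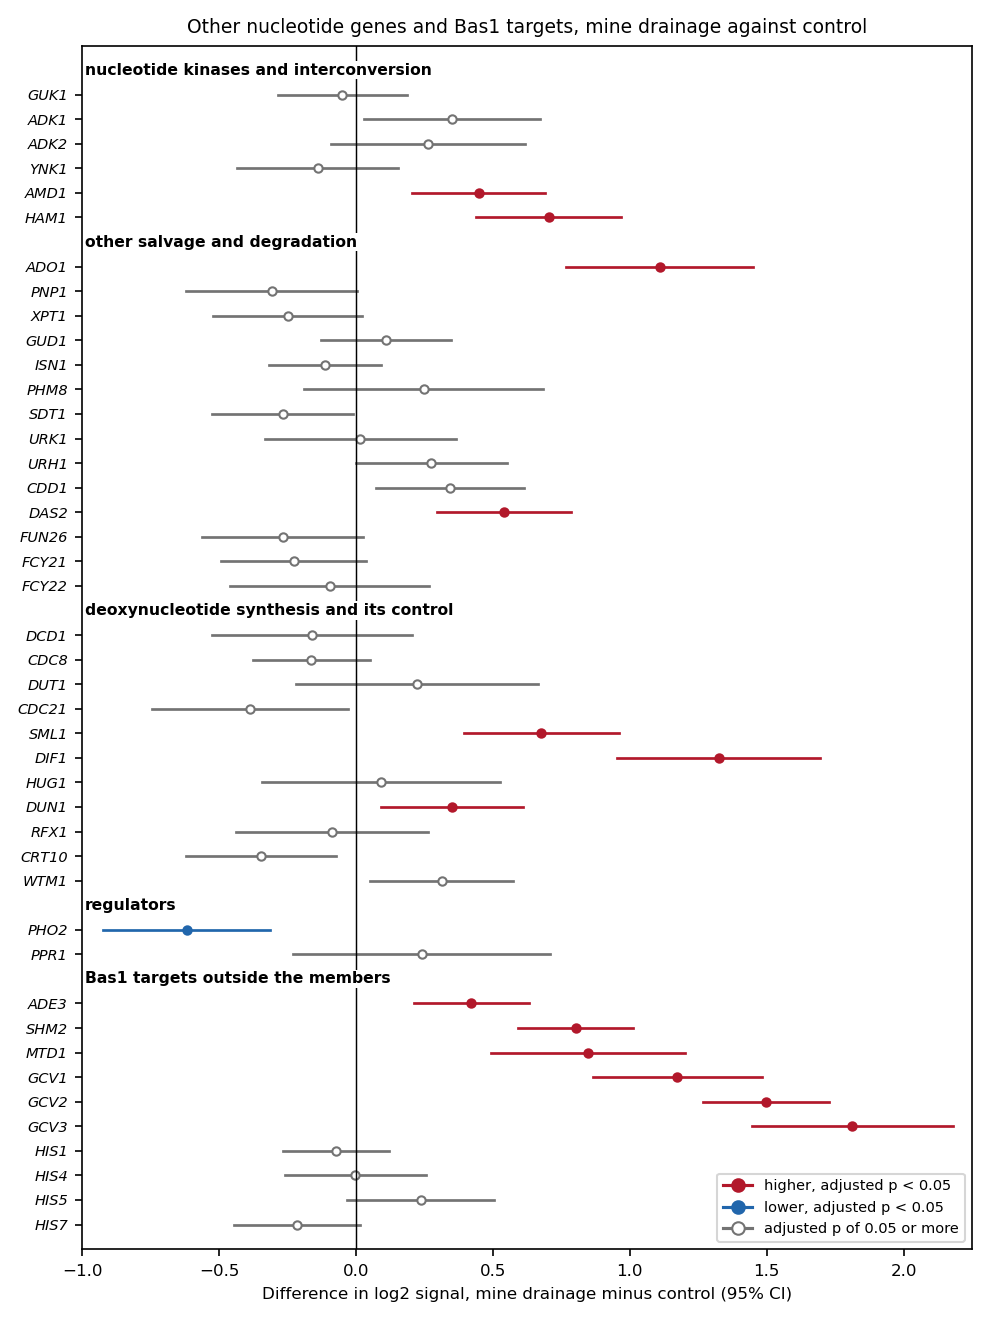
Difference in log2 signal, mine drainage minus control, for 43 genes of nucleotide metabolism and Bas1 control that are not in the nucleotide list, with 95% confidence intervals and filled points at adjusted p under 0.05. GCV3 and GCV2 are furthest to the right, at 1.81 and 1.50, followed by DIF1 at 1.32 and GCV1 at 1.17, and the HIS genes lie between -0.22 and 0.24.

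Of 7 salvage and uptake genes, 2 were higher (28.6%) and 5 were not called, against 14.5% of all probesets called higher. APT1 (YML022W), adenine phosphoribosyltransferase, which joins adenine to PRPP, had 8.18, 8.17, 8.21 and 8.31 in mine drainage and 7.87, 7.25 and 6.90 in control cultures. The mine drainage arrays agreed closely and the control arrays did not, and the rise was 0.88 ± 0.191 (SE), 1.84-fold (adjusted p = 0.00958). HPT1 (YDR399W), which does the same for hypoxanthine and guanine, had 9.53, 9.32, 9.24 and 9.39 in mine drainage and 9.06, 8.84 and 8.90 in control cultures, a rise of 0.44 ± 0.105 (SE; adjusted p = 0.0134). The call was lost in 2 of the 19 alternative settings for APT1 and in 4 for HPT1. AAH1, adenine deaminase, averaged 7.19 ± 0.210 in mine drainage and 6.77 ± 0.349 in control cultures (SD, n = 4 and 3), a difference of 0.42 that did not pass (adjusted p = 0.0899). The purine-cytosine permease gene FCY2 differed by -0.18 (8.94 in mine drainage and 9.12 in control cultures, adjusted p = 0.255). None of the 3 genes of pyrimidine salvage and uptake was called, the cytosine deaminase gene FCY1 at 0.04 (9.96 in mine drainage and 9.92 in control cultures, adjusted p = 0.795), the uracil phosphoribosyltransferase gene FUR1 at 0.13 (8.32 and 8.19, adjusted p = 0.380) and the uridine permease gene FUI1 at -0.13 (7.87 and 8.001, adjusted p = 0.663). Outside the list, ADO1, adenosine kinase, had 9.75, 9.87, 9.78 and 9.71 in mine drainage and 9.06, 8.58 and 8.35 in control cultures, a rise of 1.11 (adjusted p = 0.00253). HAM1, a pyrophosphatase that removes noncanonical purine triphosphates, rose by 0.70 (adjusted p = 0.00403), AMD1, AMP deaminase, by 0.45 (adjusted p = 0.0141) and DAS2 by 0.54 (adjusted p = 0.00771). Of the 14 other salvage and degradation genes, ADO1 and DAS2 were the only 2 called (14.3%), which is near the 14.5% of all probesets called higher.

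Of 9 measured genes of de novo pyrimidine synthesis, 2 were higher, 1 was lower and 6 were not called, against 14.5% higher and 17.1% lower over all probesets. These shares are near the background, and the median difference was 0.04. URA2 (YJL130C), the fused carbamoyl phosphate synthetase and aspartate transcarbamylase that opens the chain, had 10.05, 9.84, 9.86 and 9.97 in mine drainage and 9.57, 9.64 and 9.45 in control cultures, a rise of 0.38 ± 0.0971 (SE; adjusted p = 0.0181). URA4 (YLR420W), dihydroorotase, had 8.38, 8.15, 8.32 and 8.32 in mine drainage and 8.02, 7.91 and 7.90 in control cultures, a rise of 0.35 ± 0.0945 (SE; adjusted p = 0.0228). Both genes were without overlap, and each call was lost in 6 of the 19 alternative settings. The next enzyme is dihydroorotate dehydrogenase, encoded by URA1, which averaged 9.20 ± 0.121 in mine drainage and 9.38 ± 0.0725 in control cultures (SD, n = 4 and 3), a difference of -0.18 that was not called (adjusted p = 0.185) although its arrays did not overlap.

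URA5 (YML106W), the major orotate phosphoribosyltransferase, where PRPP enters the chain, was the 1 gene called lower. Its signals were 11.06, 10.60, 10.67 and 10.70 in mine drainage and 11.10, 11.16 and 11.14 in control cultures. Mine drainage replicate 1 lay just under the controls and the other 3 arrays further below, and the gene fell by 0.38 ± 0.120 (SE) on the log2 scale (adjusted p = 0.0393), a call lost in 9 of the 19 alternative settings. Its minor paralog URA10 (YMR271C) had 6.17, 5.85, 7.05 and 6.49 in mine drainage and 6.25, 6.29 and 6.50 in control cultures, a difference of 0.04 ± 0.237 (SE; adjusted p = 0.904) with wide spread. The responses of URA5 and URA10 differed by -0.42 (exact permutation p = 0.343, adjusted p = 0.400). URA6, UMP kinase, differed by 0.08 (7.37 in mine drainage and 7.30 in control cultures, adjusted p = 0.668). The CTP synthase genes URA7 and URA8 differed by 0.16 (8.11 in mine drainage and 7.95 in control cultures, adjusted p = 0.293) and -0.05 (8.30 and 8.35, adjusted p = 0.717).

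**Figure D4:**
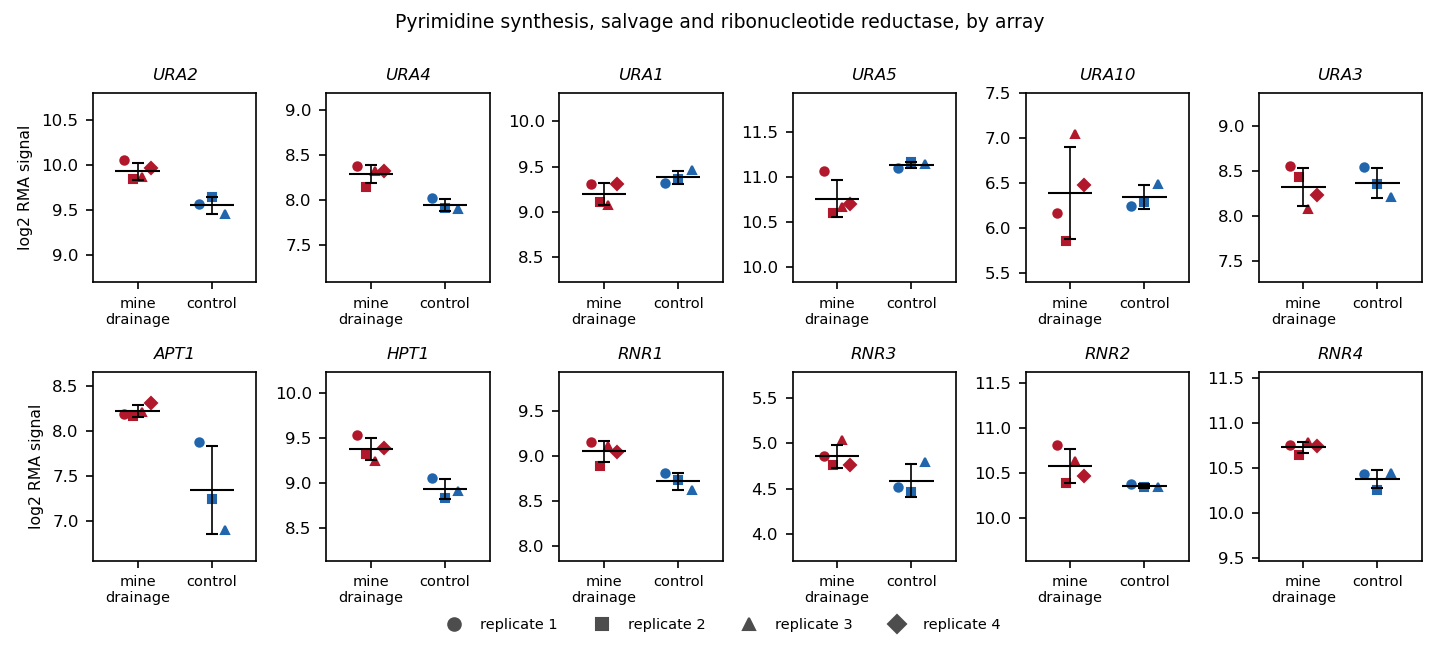
Log2 signal on every array, mine drainage on the left and control on the right of each panel, with a line for each group mean and error bars of 1 SD, for genes of pyrimidine synthesis, purine salvage (APT1 and HPT1) and ribonucleotide reductase. URA5 has its control arrays at 11.10 to 11.16, above mine drainage arrays at 10.60 to 11.06, while URA2, URA4, RNR1 and RNR4 run the other way.

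URA3 (YEL021W), OMP decarboxylase, which completes UMP, averaged 8.32 ± 0.210 in mine drainage and 8.37 ± 0.168 in control cultures (SD, n = 4 and 3), a difference of -0.05 that was not called (adjusted p = 0.820). The array also carries URA3 as a control transcript, with probesets at its 3′ end, middle and 5′ end, and these gave different answers. The 3′ probeset had 9.74, 9.80, 9.49 and 9.58 in mine drainage and 10.15, 10.16 and 10.30 in control arrays, a difference of -0.55 (exact permutation p = 0.0286, the smallest possible). The middle probeset differed by 0.13 (exact permutation p = 0.429) and the 5′ probeset by 0.31 (exact permutation p = 0.286). The 3′ minus 5′ signal of URA3 was 2.37, 3.05, 2.70 and 2.59 in mine drainage and 3.15, 3.46 and 4.00 in control arrays, a difference of -0.86 with no overlap (exact permutation p = 0.0571). The direction for URA3 thus depended on which end was read.

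**Figure D5:**
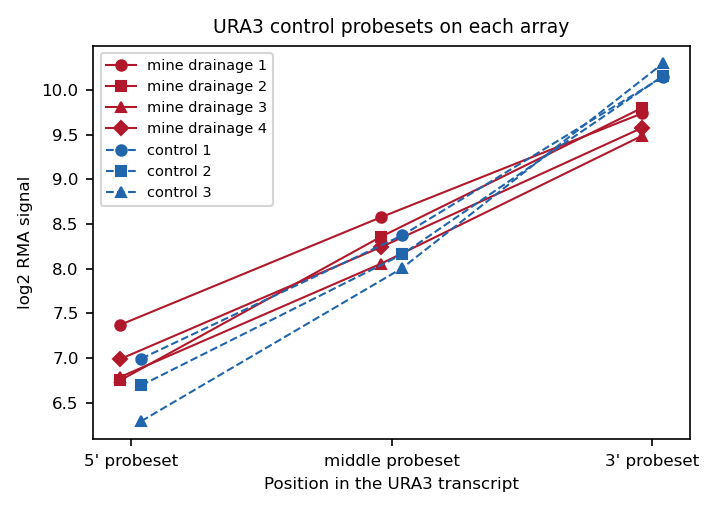
Log2 signal of the control-transcript probesets of URA3 at the 5′ end, middle and 3′ end, with solid lines joining the points of each of 4 mine drainage arrays and dashed lines those of each of 3 control arrays. At the 3′ end all mine drainage arrays, at 9.49 to 9.80, lie below the control arrays, at 10.15 to 10.30, and the groups overlap at the middle and 5′ end.

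Ribonucleotide reductase had 2 of 4 genes higher and none lower, against 14.5% and 17.1% of all probesets. The median difference was 0.30 and all 4 differences were positive. RNR1 (YER070W), the main large subunit, had 9.16, 8.89, 9.12 and 9.05 in mine drainage and 8.81, 8.73 and 8.62 in control cultures, a rise of 0.33 ± 0.101 (SE; adjusted p = 0.0332). RNR3 (YIL066C), the damage-inducible large subunit, had 4.86, 4.77, 5.04 and 4.77 in mine drainage and 4.51, 4.46 and 4.79 in control cultures, a difference of 0.27 that did not pass (adjusted p = 0.105). RNR4 (YGR180C), a small subunit, had 10.75, 10.64, 10.78 and 10.74 in mine drainage and 10.43, 10.25 and 10.44 in control cultures, a rise of 0.35 ± 0.0929 (SE; adjusted p = 0.0200). RNR2 (YJL026W), its partner, had 10.80, 10.38, 10.63 and 10.46 in mine drainage and 10.38, 10.34 and 10.34 in control cultures, a difference of 0.22 (adjusted p = 0.170). The RNR1 and RNR4 arrays were wholly separate, RNR3 overlapped, and the lowest RNR2 mine drainage array only just cleared the controls. Of the 19 alternative settings, the call was lost in 8 for RNR1 and in 6 for RNR4. The responses within the pairs differed by 0.06 for RNR1 and RNR3 (exact permutation p = 0.80) and by 0.13 for RNR4 and RNR2 (exact permutation p = 0.200, adjusted p = 0.280).

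Of 11 other genes of deoxynucleotide synthesis and its control, 3 were higher (27.3%) and none lower, against 14.5% and 17.1% of all probesets. DIF1, which brings the small subunits into the nucleus, had 8.06, 7.76, 7.91 and 7.96 in mine drainage and 7.03, 6.27 and 6.50 in control cultures, a rise of 1.32 (adjusted p = 0.00197). SML1, a protein inhibitor of the reductase, had 7.88, 8.24, 8.18 and 7.98 in mine drainage and 7.60, 7.34 and 7.24 in control cultures, a rise of 0.68 (adjusted p = 0.00582). The third, the checkpoint kinase gene DUN1, rose by 0.35 (adjusted p = 0.0451) and was named after its value was seen.

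The synthetases of PRPP, the sugar phosphate that purine, pyrimidine and salvage reactions share, did not move together. Of the 5 genes, PRS5 (YOL061W) alone was called, with 8.86, 8.47, 8.56 and 8.77 in mine drainage and 8.44, 8.20 and 8.18 in control cultures, a rise of 0.39 ± 0.123 (SE; adjusted p = 0.0363). The gap between the groups was small. PRS1 averaged 9.12 ± 0.103 in mine drainage and 9.38 ± 0.0292 in control cultures (SD, n = 4 and 3), and its difference of -0.26 did not pass (adjusted p = 0.0608), although its arrays did not overlap. In 4 of the 19 alternative settings PRS1 was called lower. PRS2, PRS3 and PRS4 differed by 0.14, -0.01 and -0.10 (adjusted p = 0.353, 0.918 and 0.425). PRS2 averaged 9.37 in mine drainage and 9.24 in control cultures, PRS3 7.77 and 7.79, and PRS4 8.04 and 8.14. The responses of PRS2 and PRS4 differed by 0.24 (exact permutation p = 0.0857, adjusted p = 0.250).

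Averaged over genes within each array and set against the control mean, the 16 genes called higher lay at 0.514 to 0.581 in mine drainage arrays and at -0.124 to 0.159 in control arrays. These values only describe a set chosen by its calls, which favours genes whose arrays lie close together within a group. Control replicate 1 was the highest control in 13 of the 16 genes and control replicate 3 the lowest in 11. The same count over all probesets is not given here. The 3′ minus 5′ signal difference of the control transcripts was 0.792, 0.911 and 1.14 in control replicates 1, 2 and 3. Its part in this order was not tested. The purine chain lay at 0.396 to 0.516 in mine drainage and -0.076 to 0.085 in control arrays, and the reductase genes at 0.161 to 0.383 and -0.063 to 0.040. The salvage and uptake genes lay at 0.036 to 0.362 in mine drainage and -0.18 to 0.228 in control arrays, with overlap. The pyrimidine genes overlapped too, at -0.040 to 0.129 in mine drainage and -0.032 to 0.043 in control arrays.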

How the data were processed

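Of total RNA from 4 mine drainage and 3 control cultures, amplified cDNA was labelled and hybridized to Yeast Genome 2.0 arrays. The authors deposited log2 values made with RMA in Partek Genomics Suite 6.6, as their methods and the submitters' processing notes name them, with quantile normalization over the arrays. The deposited range was 0.163 to 12.8. The sample labels gave each array's group and number. No genome coordinates were used here.

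Of 10928 probesets, 5498 named S. cerevisiae genes in the platform annotation, and their symbols were brought up to date from the R64 annotation, which also gave coding lengths. Mine drainage minus control was fitted with limma 3.58.1 in R 4.3.3 (5 residual degrees of freedom, two-sided, Benjamini-Hochberg adjustment over 5498 probesets, no filter on dim probesets). Single values and paralog pairs were compared by a two-sided exact permutation test over 35 splits. The number of arrays limits the precision. The fit was tested on simulated data with known changes.

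The members and lists were chosen with earlier results of these data known. All members were named, with every array for those called and their paralogs. Of 43 other genes, at most 12 called ones with the largest differences were named. Alternatives were the methods' one-way ANOVA, another prior, array weights, other scalings, a filter on dim probesets, the replicate number as a block, each array left out, a 3′ to 5′ covariate, a length trend and other rules for probesets. Naming 75 probesets through the held part of the supplement was added after seeing the data. Fold changes and p-values of the supplement were not used. Promoter motifs and protein identities were planned and not analysed here. Figures were drawn with matplotlib 3.10.9.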

Additional observations from a re-analysis of the deposited data

Results flagged for a closer look

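Of 83 groups of 4 mine drainage arrays screened for an array far from the others, 5 were picked out, and chance picks about 1 in 20. For ADE5,7, replicate 2 was high at 10.7 against 10.61 to 10.63 in the other mine drainage arrays, a narrow range in all. ADK2, an adenylate kinase gene, had 5.27 in replicate 1 against 4.63 to 4.69. HUG1 had 5.001 in replicate 2 against 5.66 to 5.79. GCV1 had 8.62 in replicate 3 against 8.96 to 8.996, and HIS1 had 10.66 in replicate 3 against 10.75 to 10.77. The 3 control arrays are too few for the same screen.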

How the results depend on the processing

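All 17 called members kept their direction under 19 alternatives, and ADE8, ADE1 and GUA1 kept their calls in all of them. Over the 38 measured members and 19 alternatives, 618 values kept direction and side of the threshold, 74 lost the call, 11 gained it and 19 changed sign. The members called higher numbered 11 by the methods' one-way ANOVA, 12 with further quantile normalization and 19 with array weights. They numbered 7 with the replicate block and 3 with the 3′ to 5′ covariate, and 6 to 17 with an array left out. Further quantile normalization lost the calls of ADE4, ADE13, URA2 and RNR4. It brought the median member difference from 0.21 to 0.14, with 831 of all probesets called higher. The members called lower numbered 0 by the methods' one-way ANOVA, with the replicate block and with the covariate, 2 with another prior, array weights or further quantile normalization, and 0 to 1 with an array left out. The count of all probesets higher was 362 by ANOVA, 1258 with array weights, 432 with the replicate block, 228 with the covariate and 324 to 832 with an array left out, and that of all probesets lower was 368, 1577, 497, 283 and 364 to 980 under the same settings. Deviations from the group mean had r = -0.07, -0.18 and 0.08 between same-numbered arrays. Between differently numbered arrays r ran from -0.18 to 0.30. Such deviations cancel out within each small group, so these r values cannot show whether the number pairs the cultures. The cause of these changes was not tested, except that fewer samples or residual degrees of freedom remain in the fits without an array, with the block or with the covariate.

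Signs changed only in uncalled genes and in 1 paralog pair. Further quantile normalization gave 0.0225 for BAS1, -0.1005 for FCY1 and -0.105 for the paralog difference RNR1 minus RNR3. A median shift gave 0.0103 for PRS3 and 0.0218 for HIS4, and array weights gave 0.0903 for HIS4. The covariate gave 0.0718 for PRS3, -0.133 for URA6 and 0.0439 for HIS4. Subtracting a length trend gave 0.00194 for PRS3, 0.0267 for BAS1, 0.00954 for URA8 and 0.0740 for HIS4. With an array left out, the range was -0.245 to 0.0938 for BAS1, -0.0233 to 0.130 for FCY1, -0.279 to 0.0603 for FUI1, -0.0743 to 0.0642 for HIS4, -0.0611 to 0.0322 for PRS3, -0.177 to 0.223 for URA10, -0.126 to 0.0412 for URA3, -0.0132 to 0.156 for URA6 and -0.0898 to 0.146 for the paralog pair. Of the 12 other genes named by rule, 9 kept their calls throughout, and AMD1, DAS2 and PHO2 did not (PHO2 by ANOVA at an adjusted p of 0.0556). IMD2, outside the 38 members, gained a call with array weights, without mine drainage replicate 1 and with the covariate. The number of arrays limits the precision.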
